A study of Homo sapiens with 18 samples.

Results

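Pseudogene copies of ribosomal protein genes that held a peak of MYC-bound RNA were the subject of this account. MYC is a transcription factor that binds DNA with its partner MAX. Its RNA contacts were mapped by eCLIP (enhanced crosslinking and immunoprecipitation), in which ultraviolet light ties protein to RNA before the protein is pulled down and its RNA fragments are sequenced. A copy was taken as a member when RefSeq classed it as a pseudogene, its symbol began with RPL or RPS and ended with P and a number, and it was the shortest annotated gene holding the summit of a deposited peak. Of 1989 such pseudogenes in the RefSeq table of GRCh38.p14, 52 were members, out of 1466 genes of any kind with a peak. All 52 held a wild-type peak and 2 of them also a 3A peak. The members were chosen by the presence of a peak in these lists, so their counts and fold enrichments are given as a description with no test.

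All samples were of the human osteosarcoma line U2OS. Its own MYC gene had been knocked out, and MYC with a FLAG tag was induced by doxycycline from a Tet-On construct. The 3 alleles were wild type and the mutants 3A and 7A, whose changed residues the labels do not give. After 24 h with 1 µg/mL doxycycline, 2 precipitates and 1 input were sequenced per allele, and as many after PBS for the same time, 18 libraries in all. The labels do not say whether the line is a single clone. The 3 peak lists analysed here are 1 per allele, all from cells with doxycycline, with 2149 wild-type, 103 3A and 88 7A peaks. Uninduced cells were not analysed here, and no background from them stands beside these values. There is 1 list per allele with no values per replicate, the depth behind the lists is unknown, and peak lists do not give the expression by which the cell line's markers could be checked. Fold enrichments are the authors' ratio for each peak over a control or background that the sources used here do not name, and are used only within a list.

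Ribosomal protein genes encode the proteins of the large (RPL) and small (RPS) subunits of the cytosolic ribosome. Their short and abundant messages have been copied back into the genome many times by reverse transcription. Such a processed pseudogene lacks the introns of its parent, can resemble the parent's message closely, and commonly lands at a site with no promoter of its own. A read from the parent's message can therefore match a pseudogene, and the reverse, so the gene of origin of each peak described here is uncertain. BWA, per the submitters' processing notes, was the only aligner named. The sources used here do not say how reads with several matches were treated.

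The parents' starts are shown for the 7 families with the highest pseudogene peaks among those with a start sequence in the RefSeq table, because ribosomal protein messages are known for a start made of pyrimidines, the terminal oligopyrimidine (TOP) motif. Each line gives RefSeq sequence on the strand of the gene from 30 bases before to 20 bases after the annotated start, in GRCh38.p14. Capitals mark an unbroken run of C and T that begins with a C at the start base.
RPS21: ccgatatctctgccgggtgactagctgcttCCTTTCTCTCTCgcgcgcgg
RPLP2: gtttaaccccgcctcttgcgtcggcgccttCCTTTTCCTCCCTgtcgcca
RPS18: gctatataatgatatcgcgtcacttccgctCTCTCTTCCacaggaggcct
RPS3: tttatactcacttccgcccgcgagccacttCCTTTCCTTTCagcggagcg
RPS16: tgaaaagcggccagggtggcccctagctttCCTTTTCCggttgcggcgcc
RPS12: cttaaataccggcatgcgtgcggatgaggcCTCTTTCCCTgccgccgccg
RPL4: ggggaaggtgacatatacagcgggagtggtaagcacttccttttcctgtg
These windows lie at chromosome 20 from 62387073 to 62387122 (plus strand) for RPS21, chromosome 11 from 809937 to 809986 (plus) for RPLP2, and chromosome 6 from 33272045 to 33272094 (plus) for RPS18. That of RPS3 lies at chromosome 11 from 75399488 to 75399537 (plus). Those of RPS16 lie at chromosome 19 from 39435930 to 39435979 (minus), of RPS12 at chromosome 6 from 132814539 to 132814588 (plus) and of RPL4 at chromosome 15 from 66504836 to 66504885 (minus). In RPS21 the run is 12 bases long and in RPLP2 13 bases, while RPL4 has none at its annotated base. Of the 43 parents, 34 had a start sequence, and 25 of these (73.5%) had at least 1 start with C followed by 4 or more bases that are each C or T, searched on the strand of the gene only. The same was true of 47 of 63 ribosomal protein genes (74.6%) and of 1404 of all 27305 genes with a start sequence (5.14%). CACGTG is the E-box that MYC binds in DNA and reads alike on both strands. It was sought in the window from 250 bases before to 50 after a start. RPL19 was the only parent with it (2.94% of 34), against 4 of 63 ribosomal protein genes (6.35%) and 8.77% of all genes. These shares were not tested, and that of the parents rests on 1 gene. A match is a description of these letters and not a site. Sequences of the pseudogenes themselves were not used here, since none of the 52 had a sequence in the tables at hand.

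The wild-type list held 58 peaks in the 52 pseudogenes (2.70% of its peaks, 95% Wilson interval 2.09 to 3.47, which covers counting error over peaks only). In all, 2.61% of the 1989 ribosomal protein pseudogenes had a wild-type peak, against 2.39% of all 59716 placed genes, 0.604% of the 15062 other pseudogenes and 73.4% of the 79 cytosolic ribosomal protein genes. These percentages were fixed by the peaks that chose the members and nothing is read from them. RefSeq classed 2 of the 52 (3.85%) as transcribed pseudogenes, against 31 of the 1989 (1.56%). The members lay on 16 chromosomes, with most on chromosome 11, which had 8, chromosome 6, which had 7, and chromosome 3, which had 6. Copies of large-subunit genes numbered 28 (53.8%, Wilson interval 40.5 to 66.7), against 64.0% of all 1989. Copies of small-subunit genes numbered 24 (46.2%, 33.3 to 59.5), against 34.8%. Each interval includes the share of all 1989.

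The strongest peak lay in RPS21P4, a copy of the small-subunit gene RPS21. The pseudogene spans chromosome 4 from 16256254 to 16256601, and its peak, on the minus strand from 16256362 to 16256532, reached a fold enrichment of 44.8. Its −log10 q was 157. Only 3 wild-type peaks had a higher fold enrichment, which made RPS21P4 the 4th of 2149. Its parent RPS21 held 2 wild-type peaks, with fold enrichments of 10.0 and 23.6, and the higher of them was the 42nd of the list.

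RPL4P4, a copy of the gene of a large-subunit protein that lines the tunnel through which new peptides leave the ribosome, held the next peak. It spans chromosome 3 from 185417408 to 185418843 and at 1436 bp was the longest member. One of its peaks, from 185418687 to 185418829 on the minus strand, reached a fold enrichment of 30.4. Its −log10 q of 202 was the highest of the members. The other, from 185417652 to 185417884, reached only 7.05, and their summits lay 1032 bp apart. The 3 peaks of the parent RPL4 had fold enrichments of 7.86, 8.39 and 9.75, so that a single peak of the copy stood above the parent and the other below it.

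Copies of RPLP2, the gene of an acidic protein of the ribosomal stalk that recruits translation factors, came next. RPLP2P5 on chromosome 17 from 62381596 to 62382052 had a peak with a fold enrichment of 27.2. RPLP2P3 on chromosome 11 from 107908347 to 107908802 had a peak with a fold enrichment of 17.8. The 2 peaks of RPLP2 itself, at 18.4 and 15.4, lay around the value of RPLP2P3.

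RPL30P4, a copy of a large-subunit gene on chromosome 3 from 32635171 to 32635622, reached a fold enrichment of 21.3, while RPL30 had 9.30 and 6.28. RPS18P12, a small-subunit copy on chromosome 17 from 14705037 to 14705576, had 20.2, and RPS18 held no wild-type peak. These were the members at a fold enrichment of 20 or above, 5 peaks in all.

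Another 14 peaks had fold enrichments between 10.1 and 17.8. Among them were RPS3P4 (17.3), a copy of the gene of a protein at the entry of the messenger channel, RPS16P1 (17.1), RPS12P22 (16.2) and RPS27P27 (16.1), all copies of small-subunit genes. Others in this range included RPL35AP21 (14.3), RPS4XP13 (13.0), RPS25P6 (12.9), RPL27P4 (12.8), RPL36P12 (12.5), RPL32P18 (11.4), RPL37AP1 (10.8) and RPL24P4 (10.1). Most members were weaker. In the range from 5.05 to 9.89 there were 31 peaks, such as RPL10P16 (9.01), a copy of a gene needed for the last steps of large-subunit assembly, and RPL3P7 (6.71), a copy of the gene of a protein near the peptidyl transferase centre. The remaining 8 peaks had 1.96 to 4.34, in RPS13P2, RPL37AP1, RPL13P12, RPS10P19, RPL19P9, RPLP1P4, RPS18P5 and RPS11P5.

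The lowest −log10 q of a member, 2.37, belonged to the second peak of RPS11P5, which was also its lowest fold enrichment, against 2.04 for the lowest of the whole list. The next lowest were RPL36P2 at 6.22 and RPS18P5 at 7.80. The rule had no near misses, since 0 other ribosomal protein pseudogenes were touched by a peak whose summit lay outside them or in a shorter gene.

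**Figure D1:**
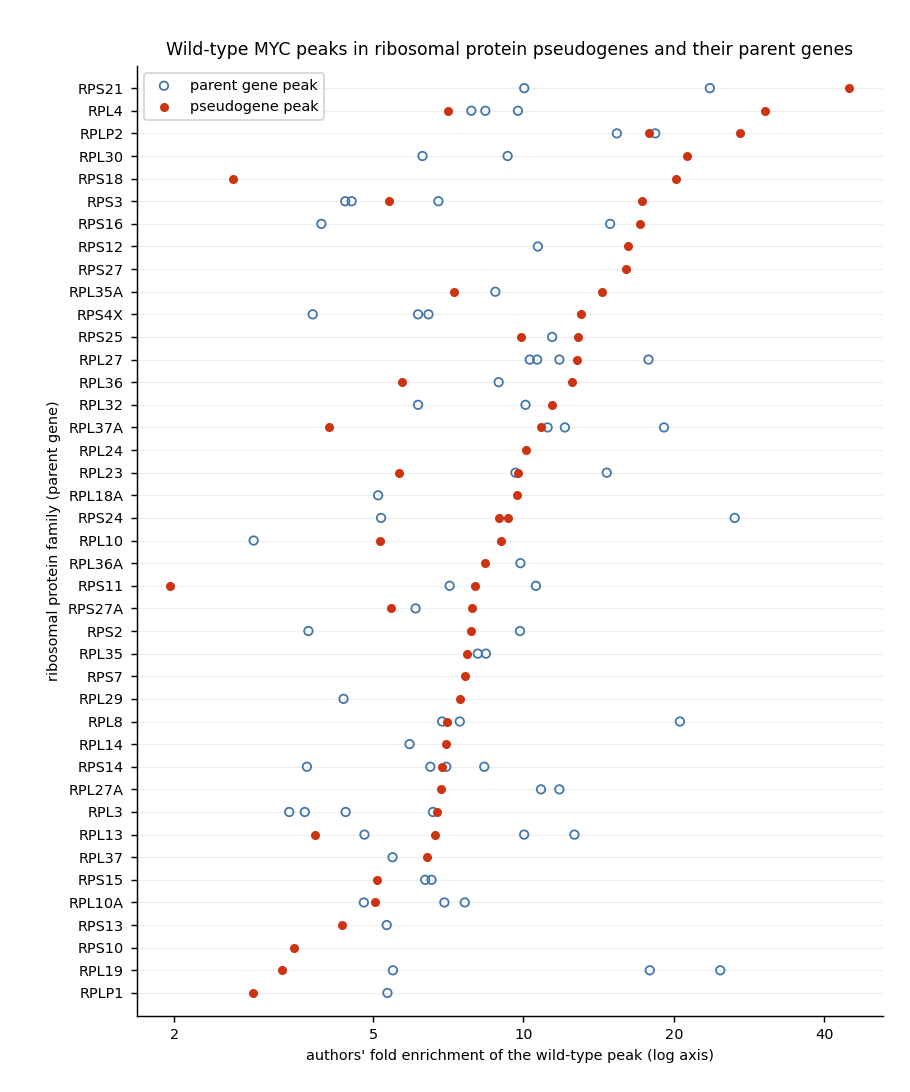
Authors' fold enrichment of each wild-type peak (log axis) in 41 of the 43 families with a member, with filled points for pseudogene peaks and open points for peaks of the parent gene, ordered by the highest pseudogene peak. RPS21, RPL4 and RPLP2 lead, 5 of those drawn have no open point, and in 19 of the 36 with both the highest filled point lies above the highest open one.

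The median fold enrichment was 7.78 over the 58 pseudogene peaks (95% interval from order statistics 6.88 to 9.71, range 1.96 to 44.8). Over the 75 peaks of their parents it was 8.10 (6.59 to 9.84, range 2.88 to 26.5), so the intervals overlapped. All 2149 wild-type peaks had a median of 8.11, and the 103 peaks in other pseudogenes 10.1. With only the highest peak of each gene, the medians were 8.20 for the 52 pseudogenes and 9.75 for the 37 parents with a peak. At a fold enrichment of 10 or more stood 19 of the pseudogene peaks (32.8%), 27 of the parents' peaks (36.0%) and 752 of all wild-type peaks (35.0%). Pseudogene peaks were narrow, with a median of 118.5 bp and a longest of 338 bp, against 158 bp in the parents and 165 bp over the whole list. The peaks in other pseudogenes had nearly the same median width, 122 bp. The shortest of both the members and the whole list was 100 bp. No test was made of these differences, since fold enrichment and width come from the peak calls that chose the members.

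The parent gene usually had a peak as well, as did most ribosomal protein genes. Of the 43 families with a member, 37 had a wild-type peak in the parent (86.0%, Wilson interval 72.7 to 93.4). Of all 79 cytosolic ribosomal protein genes 58 had one (73.4%), a share within that interval. In the 34 families with annotated pseudogenes but no member, 19 parents did (55.9%, 39.5 to 71.1). In 19 of the 37 the highest pseudogene peak exceeded the highest parent peak, and in the other 18 it was below it. RPL10P16 (9.01) and RPL10P9 (5.16), for instance, both stood above the lone peak of RPL10 (2.88). In the other direction, RPL19P9 had 3.28 and its parent up to 24.8.

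In 6 families a pseudogene had a peak and the parent had none. These families, RPS7, RPS10, RPS18, RPS27 and RPL24 among them, had 7 pseudogenes and 8 peaks. RPS18P12 (20.2) and RPS27P27 (16.1) were the highest of these, and others were RPL24P4 (10.1), RPS7P1 (7.64), RPS10P19 (3.47) and RPS18P5 (2.62). RPS7 and RPS10 are known as genes mutated in Diamond-Blackfan anaemia, a red cell disorder of ribosome production. The 8 peaks had a median fold enrichment of 8.88, near that of all the pseudogene peaks. For these families no parent peak was found under the summit rule or with any overlap of at least 1 bp.

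Families with few annotated copies supplied most members. Of the 77 families that are in the table and in the parent list, the 27 with 1 to 10 copies had 208 pseudogenes, of which 22 were members (10.6%, Wilson interval 7.09 to 15.5). The 16 families with 11 to 20 copies had 19 members of 245 (7.76%, 5.02 to 11.8). The share was lower in the 22 families with 21 to 49 copies, 9 of 680 (1.32%, 0.698 to 2.50), and in the 12 families with 50 or more, 2 of 833 (0.240%, 0.0659 to 0.871). The intervals of the first pair of classes do not overlap those of the last pair. Copies of 1 family share their sequence and are not independent, so the intervals cover counting error only and no test was made.

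RPL21 has 137 annotated pseudogenes, the most of any family, followed by RPL23A with 95 and RPL7A with 80, and none of these copies held a peak. Their parents did have wild-type peaks, RPL21 at 9.14, RPL23A at up to 12.1 and RPL7A at 7.22. The members among families of 50 or more copies were RPS2P46 (7.86) and RPL36AP37 (8.39). At the other end, RPLP2 has 5 annotated pseudogenes, of which 2 were members, and RPS3 has 7, of which 2 were. The parents themselves had a peak in 22 of the 27 smallest families, 13 of 16, 13 of 22 and 8 of the 12 largest.

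**Figure D2:**
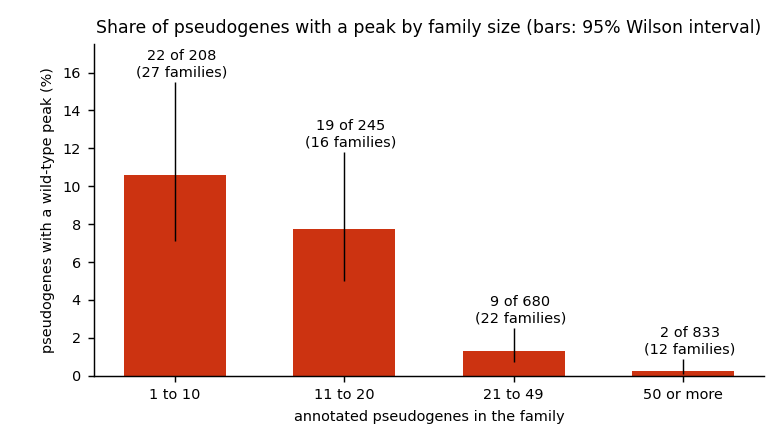
Share of annotated ribosomal protein pseudogenes with a wild-type peak (%) by the number of annotated pseudogenes in the family, with 95% Wilson intervals for counting error. The share is 10.6% in the families of 1 to 10 copies and 0.240% in those of 50 or more.

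Most members were longer than the median copy of their family, though some only slightly. The median length of a member was 519.5 bp (range 255 to 1436), against 539 bp over all 1989 ribosomal protein pseudogenes, and 41 of the 52 (78.8%) were longer than the median pseudogene of their own family. The excess ranged from slight, as in RPS24P15 (509 bp against a family median of 508.5) and RPL19P9 (697 against 696), to large, as in RPL10P16 (749 against 383). A summit had to lie inside the copy, and the part of length in the choice of members was not tested. The shortest member was RPS27P27 at 255 bp. The peaks lay within the copies, and 56 of the 58 were wholly inside the annotated pseudogene. The exceptions were RPS27P27 and the second peak of RPL35AP21, which reached past an end.

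Within the copies the peaks gathered towards the end that is 5′ on the strand of the peak. The table gives no strand for pseudogenes, so the strand of the peak was used. The summit was nearer the 5′ than the 3′ end in 43 of 58 peaks (74.1%, Wilson interval 61.6 to 83.7). This was so on both strands, with 20 of 26 plus-strand summits (76.9%) nearer the lower end of the gene and 23 of 32 minus-strand summits (71.9%) nearer the upper end. The median distance from the 5′ end was 129.5 bp, the nearest was 52 bp in RPL37P2, and the farthest was 1107 bp in RPL4P4. Within 150 bp of the 5′ end lay 35 summits (60.3%), and within 150 bp of the 3′ end 7 (12.1%).

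Divided into 5 equal parts from the 5′ end, the pseudogenes had 21, 17, 7, 11 and 2 summits. RPL4P4 (75 bp from the 5′ end), RPS18P12 (59 bp) and RPS2P46 (54 bp) are examples near the 5′ end, and RPS14P3 (689 bp, of a gene of 838 bp) lay towards the 3′ end. The peaks in the 79 ribosomal protein genes were also more frequent towards the 5′ end, where 84 of 114 summits (73.7%) were nearer it, and so were those in other pseudogenes, 81 of 103 (78.6%). The parents have introns, so a distance in bp along them is not a distance along the message, and their median of 1297 bp is not comparable with that of the copies.

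**Figure D3:**
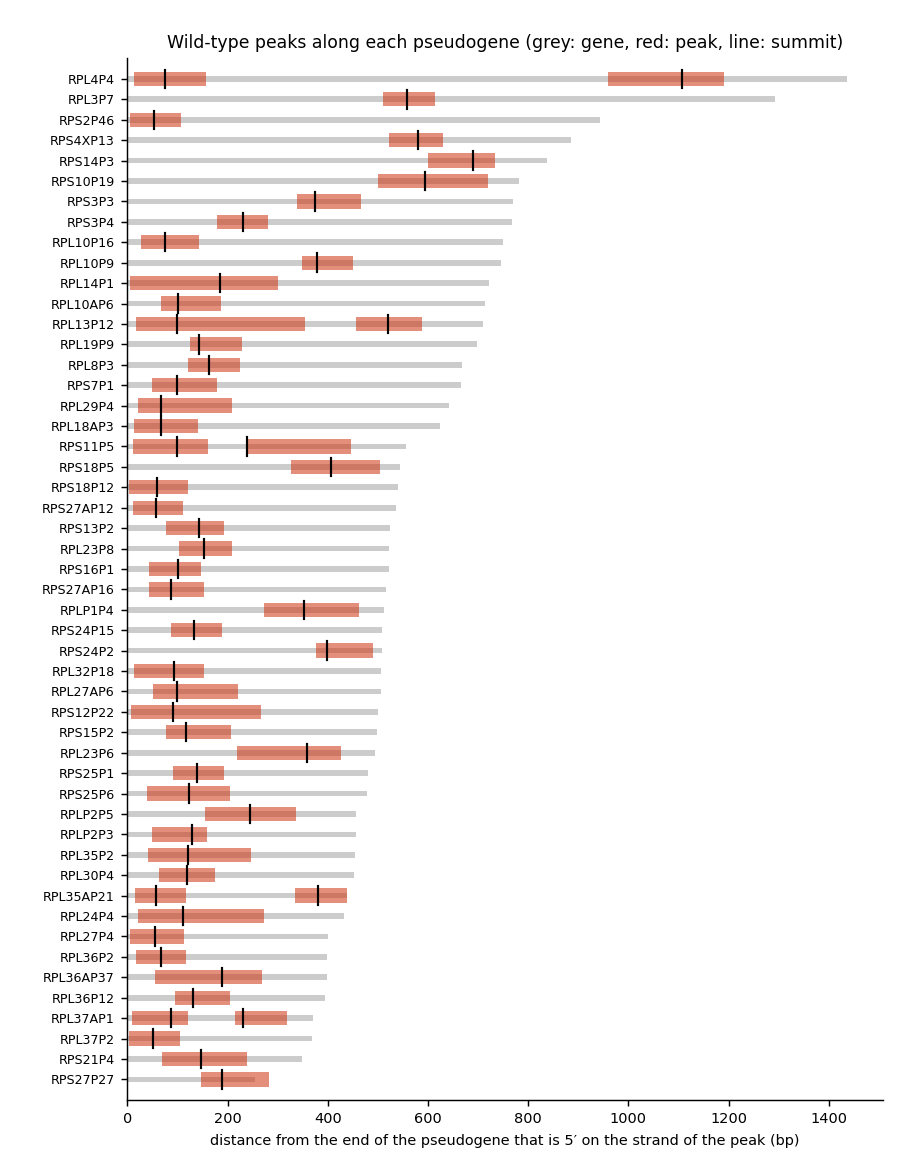
Of the 52 pseudogenes, 50 are drawn, each as a grey bar from its 5′ end on the strand of the peak, with the wild-type peaks in red and their summits as black lines (x axis in bp). Most summits lie within 150 bp of the left end, and 5 of the pseudogenes drawn carry 2 peaks.

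**Figure D4:**
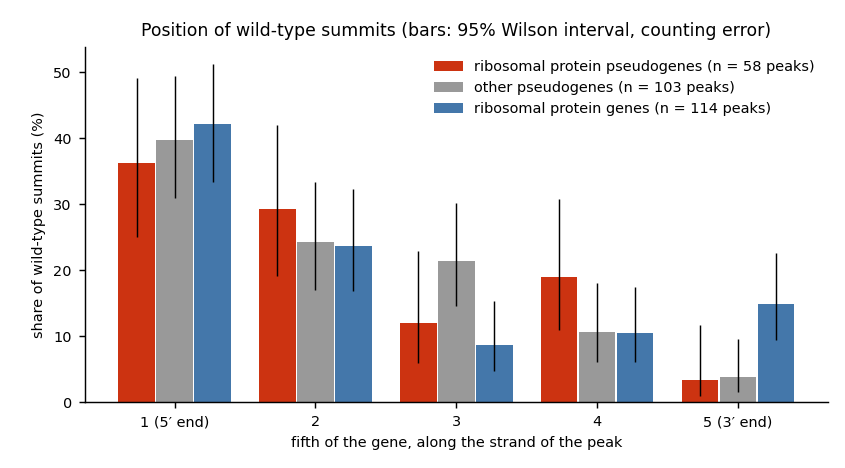
Share of wild-type summits (%) in 5 equal parts of the host gene from its 5′ end, for 58 peaks in ribosomal protein pseudogenes, 103 in other pseudogenes and 114 in ribosomal protein genes, with 95% Wilson intervals for counting error. The first part holds 36.2%, 39.8% and 42.1%, and the last holds 3.45%, 3.88% and 14.9%.

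A pair of peaks was found in 6 members, in each case on 1 strand. Among these, the summits were 139 bp apart in RPS11P5, 143 bp in RPL37AP1, 322 bp in RPL35AP21, 421 bp in RPL13P12 and 1032 bp in RPL4P4. The peak nearer the 5′ end had the higher fold enrichment in 4 of the 6. In RPL37AP1, for example, it was 10.8 against 4.08, and in RPS11P5 8.01 against 1.96. In RPL13P12 the order was turned, 3.83 against 6.66, and likewise in RPL35AP21, 7.27 against 14.3.

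In 9 families 2 copies were members, and no family had more. The summits of the copies' highest peaks lay at most 50 bp apart along the gene in 2 of these families. They were RPS25P1 and RPS25P6, at 138 and 122 bp from the 5′ end, with fold enrichments of 9.89 and 12.9, and RPS27AP12 and RPS27AP16, at 58 and 88 bp, with 7.89 and 5.43. RPS27A encodes a fusion of ubiquitin and a small-subunit protein. In the other 7 families the summits lay 63 to 347 bp apart. The widest gap was between RPS18P5 (406 bp, fold enrichment 2.62) and RPS18P12 (59 bp, 20.2), copies of nearly equal length, 545 and 540 bp. RPS24P2 and RPS24P15 had almost the same fold enrichment, 8.95 and 9.33, at summits 265 bp apart.

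The share of members inside a longer annotated gene was close to that of all ribosomal protein pseudogenes. A longer gene held 27 of the 52 members (51.9%), with 29 of the 58 peaks, and the midpoint of 989 of all 1989 ribosomal protein pseudogenes (49.7%). Of the 91 other pseudogenes with a wild-type peak, 31 lay in a longer gene (34.1%). The strand of a longer gene was known for 20 of the 27, through the RefSeq start sequences. In 13 of these (65.0%, Wilson interval 43.3 to 81.9) the peak lay on the opposite strand, and in 7 on the same one. Counted by peaks, 15 of 22 were opposite (68.2%, 47.3 to 83.6), against 13 of 24 in other pseudogenes (54.2%, 35.1 to 72.1), and these intervals overlap. Over all 225 wild-type peaks with a summit inside a longer gene of known strand, which include both of these sets, 97 were opposite to it (43.1%). Without the peaks in pseudogenes it was 69 of 179 (38.5%, 31.7 to 45.8). A different measure is the strand of a peak against that of its own host gene, which is unknown for the pseudogenes. By it, the peaks in ribosomal protein genes of known strand were on the strand of the gene in 87 of 87 cases. Those in protein-coding hosts were so in 1532 of 1550 (98.8%). These shares are a description and were not tested.

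Among the opposite cases were RPL27P4 in EPB41, which encodes a protein of the membrane skeleton, RPL36P12 in the SR protein kinase gene SRPK2, and RPL4P4 in the kinase gene MAP3K13. RPL32P18 in NUDCD3, RPS11P5 in the golgin gene GOLGA3, RPL10AP6 in the receptor phosphatase gene PTPRG and RPS24P2 in the transporter gene FLVCR2 were others. On the same strand were RPLP2P5 in EFCAB3, RPL18AP3 in the thioredoxin reductase gene TXNRD1, RPL8P3 in PCOLCE2, RPS10P19 in the autophagy gene AMBRA1, RPS14P3 in MICOS10, RPS25P1 in BDNF-AS and RPS27AP12 in the ubiquitin ligase gene UBE3C. With protein-coding longer genes alone, 11 of 17 were opposite. None of the longer genes of the 27 pseudogenes held another wild-type peak outside the pseudogene (0 of 27, which allows a share of up to 11.1%). Of all protein-coding genes, 6.02% were the shortest gene holding a wild-type summit. These shares are counted differently. The first takes any summit within the longer gene and includes non-coding longer genes. Peaks inside a longer gene had a median fold enrichment of 8.01 and the 29 others 7.0.

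**Figure D5:**
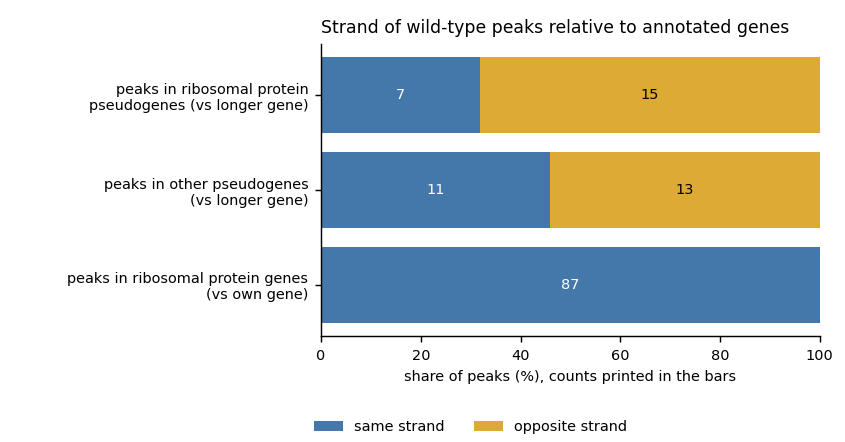
Share of wild-type peaks (%) on the same and the opposite strand, with counts in the bars, for peaks in ribosomal protein pseudogenes and in other pseudogenes relative to a longer gene of known strand around them, and for peaks in ribosomal protein genes of known strand relative to the gene itself. In ribosomal protein pseudogenes 15 peaks are opposite and 7 along the longer gene. All 87 peaks in ribosomal protein genes are along the gene itself, which is a different measure, as the pseudogenes' own strand is unknown.

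The mutant alleles had few peaks in these copies. The 3A list held 2 of its 103 peaks in ribosomal protein pseudogenes (1.94%, Wilson interval 0.534 to 6.81) and the 7A list 0 of 88, which allows a share of up to 3.41%. Of the 1989 pseudogenes 0.101% had a 3A peak, against 0.127% of all genes. A 7A peak was found in 0.102% of all genes. The wild-type share of 2.70% lies within the 3A interval and below the 7A limit. With 1 list per allele and unknown depth, a difference between the alleles was not tested.

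Each of the 3A peaks overlapped a wild-type peak of the same strand. In RPLP2P5 the 3A peak, from 62381764 to 62381935, had its summit 2 bp from the wild-type summit and a fold enrichment of 12.3 in its own list. Its parent RPLP2 held no 3A peak. The 3A list did hold 8 peaks in 5 ribosomal protein genes (6.33% of the 79), 4 of them in RPL8 and 1 each in RPL27A, RPLP1, RPS2 and RPS20. In the 7A list the ribosomal protein genes had 0 peaks, as did their pseudogenes.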

How the data were processed

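Per the labels' protocols, U2OS cells were treated for 24 h with doxycycline or PBS, irradiated at 254 nm, lysed, and digested with RNase I and DNase ahead of the precipitation of FLAG-tagged MYC. The titles gave the allele, treatment and kind of library of each sample. The build was hg38 and the tools were cutadapt, BWA and MACS2, per the submitters' processing notes. Not given in the sources used here are versions, settings, the control for peak calling and whether replicates were merged.

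The deposited lists are in narrowPeak layout, with the authors' fold enrichment (a ratio to an unnamed control), −log10 q and score for each peak, of which the score was not used. Depth is unknown.

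Starts were turned to 1-based positions, the summit being the start plus the deposited offset. Host genes came from RefSeq's gene table for GRCh38.p14 (hg38), with 59716 placed genes, no exons and no strands. Strands of longer genes came from RefSeq start sequences. A parent is the symbol without its ending of P and a number. All 79 names of the parent list matched. Of the table's 79 families, 2 with 23 pseudogenes are not in the list, and 2 listed genes have no pseudogene named by the rule. Shares have Wilson intervals at 95%. No test across lists was run, since each allele has 1 list and peaks chose the members. Named in detail were the hosts of the highest fold enrichments and −log10 q, those with 2 peaks or a mutant peak, those with the lowest values, and the parents without a peak. Some members and parents that this rule selects are not reported here by name, while counts and medians include them.

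The members and gene lists were chosen with earlier results of these data known. The lookup of host genes was checked on 200 simulated summits drawn inside ribosomal protein pseudogenes of the same gene table. All were placed in the right gene, which checks the lookup only and not the positions or origin of the deposited peaks. Alternatives were the host rule, overlap of at least 1 bp, −log10 q of at least 5 or 20, a fold enrichment not below the list's median and the highest peak per gene. Python 3.11.15 was used with NumPy 2.4.6, pandas 2.3.3, matplotlib 3.10.9 and SciPy 1.17.1.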

Additional observations from a re-analysis of the deposited data

How the results depend on the processing

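Of 63 alternative values of 12 results, 45 stayed within the interval of the value given above or, for counts, within 1.5 times of it. The other 18 moved. Those that stayed include the 7A counts, which were 0 under every setting and could not rise under a stricter limit on −log10 q or fold enrichment. The counts moved with the host rule and with the limits on fold enrichment and −log10 q. With a protein-coding host taken first, 35 wild-type peaks in 31 pseudogenes remained and 1 3A peak in 1 pseudogene. With the longest gene as host there were 29 wild-type peaks in 25 pseudogenes and 1 3A peak in 1 pseudogene, and the parents' median fold enrichment was 6.57. A −log10 q of at least 20 left 37 wild-type peaks, medians of 9.77 in pseudogenes and 10.1 in parents, and a parent peak in 72.7% of families. Peaks with a fold enrichment not below their list's median numbered 26 in 26 pseudogenes for wild type and 1 in 1 for 3A, with a parent peak in 65.2% of families, fewer peaks being kept by construction. The strand comparison and its alternatives were chosen after seeing the data. No paired analysis was possible because the lists hold no separate values of the replicates, which also kept any from being left out. Depth is unknown, and the short mutant lists limit any comparison with them.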
